A study of Mus musculus with 6 samples.

Results

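The genes described here are 10 components of the JAK-STAT pathway: the Janus kinases *Jak1*, *Jak2*, *Jak3* and *Tyk2*, the transcription factors *Stat3*, *Stat5a* and *Stat5b*, and the suppressors of cytokine signaling *Socs1*, *Socs2* and *Socs3*. They were taken by gene name from a merged table of read counts with 43346 genes, and each of the 10 names matched 1 row. The cells were primary mouse adult fibroblasts (MAFs), cultured in 3% O2 from collagenase-digested ear tissue of female adult C57BL6/J mice. The control group had a sham exposure, and the senescent group received 20 Gy of x-rays. The study's methods state that irradiated cells were then kept in culture for weeks before use. They give no such time for the control cells. All cells in both groups were given 100 nM dexamethasone, a glucocorticoid that synchronizes circadian clocks, for 2 hours and were collected 12 hours later. Polyadenylated RNA was sequenced from 3 control and 3 senescent samples. There was therefore 1 time point, no sample without dexamethasone, and no irradiated sample that was not called senescent. The sources used here do not say whether the 3 samples of a group came from separate animals or cultures, so the p-values measure only the spread between these samples, which may be technical.

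Cytokine receptors of this pathway have no kinase activity of their own. A cytokine draws receptor chains together, the JAK kinases bound to their cytoplasmic tails phosphorylate each other and the receptor, and STAT proteins that dock there are phosphorylated, pair up and enter the nucleus to bind DNA. SOCS genes are among the genes that STATs switch on, and SOCS proteins bind the kinases or receptors and dampen the signal, which closes a feedback loop. In fibroblasts, the IL-6 family of cytokines signals through gp130, the shared receptor chain encoded by *Il6st*, mainly by way of JAK1 and STAT3, and the pathway is also known for driving part of the secretory phenotype of senescent cells. Activity of the pathway rests on phosphorylation, which mRNA levels do not measure.

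Deposited totals ranged from 50288454 to 61747564 counts in the control samples and from 53792998 to 82229553 counts in the senescent samples. Of the 43346 genes, 17589 passed the filter on low counts and were tested. All 10 listed fibroblast markers were tested, and their summed level was 63764 to 65729.7 CPM, counts scaled to library size, in control and 47958 to 53449.5 CPM in senescent cells. The markers did not move together: 3 were higher, among them *Dcn* and *Thy1*, 5 were lower, among them *Col1a1* and *Vim*, and *Fn1*, which made up most of the sum, did not pass the test. Among the other cell types, 15 leukocyte markers summed to 6.88 to 7.23 CPM in control and 11.3 to 13.4 CPM in senescent cells, with *Cd52* at 0 in every library. In the same order, 5 endothelial markers summed to 2.53 to 2.93 CPM and 8.03 to 8.45 CPM, 7 keratinocyte markers to 16.4 to 17.0 CPM and 9.50 to 9.93 CPM, and 6 chondrocyte markers to 4705 to 5233 CPM and 335 to 418 CPM. Of the keratinocyte markers *Trp63* carried the lower sum (13.1 against 4.17 CPM), and *Cdh1* was higher (0.477 against 1.91 CPM). The part of these marker levels in the results was not tested, and in bulk samples fewer cells of a type and less RNA per cell cannot be told apart. *Cdkn1a*, which encodes the cell cycle inhibitor p21, was higher in senescent cells (123 ± 2.01 CPM against 619.5 ± 16.3 CPM, SD, n = 3) and *Lmnb1*, the lamin B1 gene, was lower (79.4 ± 1.85 CPM against 6.76 ± 0.285 CPM, SD, n = 3). Senescent replicate 3 stood apart from the other senescent samples, and its deviation from them ran with the GC content of transcripts (Spearman rho = -0.72 across 17425 genes of the same 3 libraries). The transcripts of *Jak2* have a GC content of 44.5%, below the median gene at 50.5%, and those of the other 9 genes lie between 52.0% and 64.7%. Values without senescent replicate 3, and with a term for GC content, are given with the results. Control replicate 1 also stood apart, though less. Its median squared difference from replicates 2 and 3 was 4.62 and 4.07 times that of counting noise, against 1.69 between those replicates. For senescent replicate 3 these ratios were 14.1 and 17.8, against 2.11 between replicates 1 and 2. The deviations of control replicate 1 and senescent replicate 3 from their groups correlated (Pearson r = 0.261, 17589 genes). The cause was not tested.

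All 10 genes were detected well enough to be tested, and 9 of them differed between control and senescent cells at an adjusted p under 0.05. *Jak1* and *Socs2* were higher in senescent cells and *Jak2*, *Jak3*, *Tyk2*, *Stat3*, *Stat5a*, *Stat5b* and *Socs3* were lower, while *Socs1* did not pass the test. This share has to be read against the background, since 70.3% of all genes tested passed the same threshold, 36.2% as higher and 34.1% as lower in senescent cells. The median log2 fold change of the 10 genes, senescent against control, was -0.70, and that of all genes tested was 0.01. A limit given in the study's methods, an unadjusted p under 0.05 with a change of more than 1 on the log2 scale, was passed by *Jak3* and *Socs3*, both lower in senescent cells, and by 30.1% of all genes tested (12.3% as lower). The study also states a stricter limit on p, which neither gene passed in the edgeR fit. For all 10 genes, every senescent value lay on 1 side of every control value, which was true of 75.3% of all genes tested. Such a separation gives a two-sided p of 0.1 by exact permutation, the smallest that 3 samples in each group allow, so the calls rest on the edgeR test fitted across all genes.

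**Figure D1:**
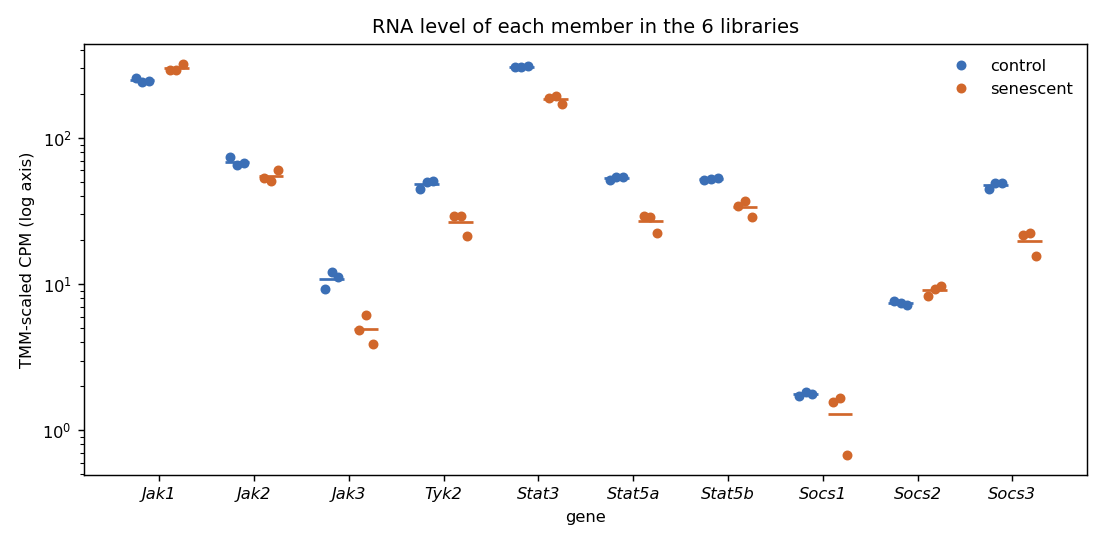
Level of each of the 10 genes in each library, in TMM-scaled CPM on a log axis, with control and senescent samples as separate points and the group mean as a line (n = 3 per group). No control and senescent points of the same gene overlap, with *Socs1* showing the widest spread among the senescent samples, from 0.675 to 1.65 CPM.

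**Figure D2:**
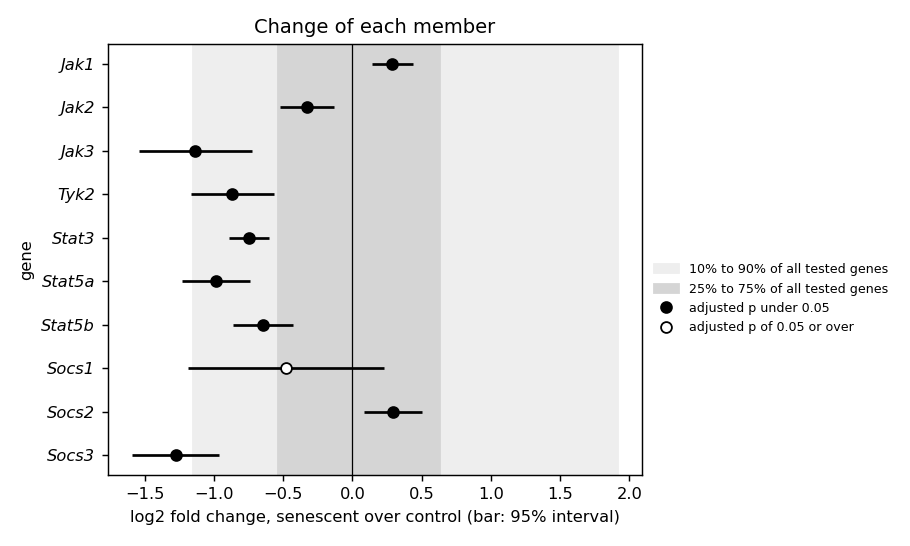
Log2 fold change of each gene, senescent against control, with its 95% confidence interval from the edgeR fit. The intervals of *Jak1* and *Socs2* lie above 0, that of *Socs1* crosses 0, and those of the other 7 genes lie below 0.

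The 4 kinases did not move in the same direction. *Jak1* (chr4:101152367-101265282 in mm10, minus strand) is the kinase that gp130, interferon and common gamma chain receptors share. Its level was 259, 241 and 244 CPM in the control samples and 291, 294 and 323 CPM in the senescent samples. The lowest senescent sample lay above the highest control sample. The mean rose from 248 ± 10.0 to 303 ± 17.8 CPM (SD, n = 3), a log2 fold change of 0.29 (SE 0.06, 95% confidence interval 0.14 to 0.44, adjusted p = 0.00425). This change was small, as 27.9% of all genes tested had a smaller one in either direction.

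*Jak2* (chr19:29251828-29313080, plus strand) encodes the kinase that serves single-chain receptors such as those for growth hormone and erythropoietin, and also binds gp130. It measured 73.7, 65.5 and 67.0 CPM in control cells and 53.6, 50.4 and 60.6 CPM in senescent cells. All senescent samples were below the control samples, with the highest of them, replicate 3, nearest to the control range. The log2 fold change was -0.33 (SE 0.08, 95% confidence interval -0.52 to -0.13, adjusted p = 0.00889), or 1.25-fold lower.

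*Tyk2* (chr9:21104069-21127346, minus strand) encodes the kinase that works with type I interferon, IL-10 and IL-12 family receptors. Control samples were at 44.9, 49.8 and 50.8 CPM and senescent samples at 29.4, 29.3 and 21.3 CPM. Replicate 3 was the lowest senescent sample. *Tyk2* fell by 0.87 on the log2 scale (SE 0.13, 95% confidence interval -1.17 to -0.57, adjusted p = 0.000508), or 1.82-fold. The gene 1700084C06Rik runs antisense across the whole of *Tyk2* but held a mean of 5.67 counts in each group, against 1629 to 2978 counts for *Tyk2*.

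*Jak3* (chr8:71676296-71690575, plus strand) encodes the kinase that pairs with the common gamma chain and is best known from lymphocytes. It was the least abundant of the kinases, at 9.32, 12.1 and 11.2 CPM in control cells and 4.85, 6.13 and 3.90 CPM in senescent cells. The highest senescent sample was below the lowest control sample. *Jak3* fell by 1.13 on the log2 scale (SE 0.18, 95% confidence interval -1.54 to -0.73, adjusted p = 0.000624), or 2.20-fold. Of the 7 leukocyte markers that were tested, 5 were higher in senescent cells and 0 lower. This is 71.4% called, near the 70.3% of all genes tested, of which 36.2% were higher. Among these markers, *Itgam* and *Laptm5* had 0 or 1 counts in each control library and passed the filter only through their senescent counts. The part of leukocyte markers in the *Jak3* values was not tested. In the control samples, *Cd3e*, *Cd3g*, *Cd4* and *Cd8a* were at 0, while *Cd68* (3.53 CPM), *Csf1r* (1.99 CPM), *Lcp1* (0.839 CPM) and *Ptprc* (0.181 CPM) were detected. The common gamma chain gene *Il2rg*, named after its values were seen, went from 0.984 ± 0.190 to 0.458 ± 0.167 CPM (SD, n = 3; log2 fold change -1.06, adjusted p = 0.0106). Other tested receptor genes of the common gamma chain group did not fall. In the same fit, *Il2rb*, *Il4ra* and *Il9r* had log2 fold changes of 2.28, 1.58 and 2.64 (adjusted p = 0.000621, 7.89e-06 and 0.00533). In control libraries, *Il2rb* had 4 to 10 counts, *Il9r* 0 to 4 and *Il21r* 0. *Il15ra* was not called (0.11, adjusted p = 0.311), and *Il2ra* and *Il7r* had too few counts to be tested. *Insl3* overlaps *Jak3* on the same strand by 1362 bases and had means of 7.67 and 13.3 counts in control and senescent cells.

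Levels of different genes can be compared only per length, so CPM was divided by the gene length in the deposited table to give RPKM. Summed over the 4 kinases, this was 60.5 ± 1.35 in control and 59.5 ± 2.26 in senescent cells (SD, n = 3). *Jak1* held 57.9%, 56.1% and 56.1% of that sum in the control samples and 69.2%, 69.9% and 72.0% in the senescent samples. The share of *Jak2* went from 22.6 ± 0.921% to 18.3 ± 1.08%, that of *Tyk2* from 17.4 ± 1.48% to 9.75 ± 2.02%, and that of *Jak3* from 3.37 ± 0.513% to 1.57 ± 0.398% (SD, n = 3). The summed kinase level was therefore close in both groups while its makeup shifted toward *Jak1*. These shares do not depend on how libraries are scaled, and they are descriptions without a test. The ratio of *Jak1* to *Jak2* CPM was 3.52, 3.67 and 3.63 in control and 5.42, 5.83 and 5.33 in senescent samples.

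**Figure D3:**
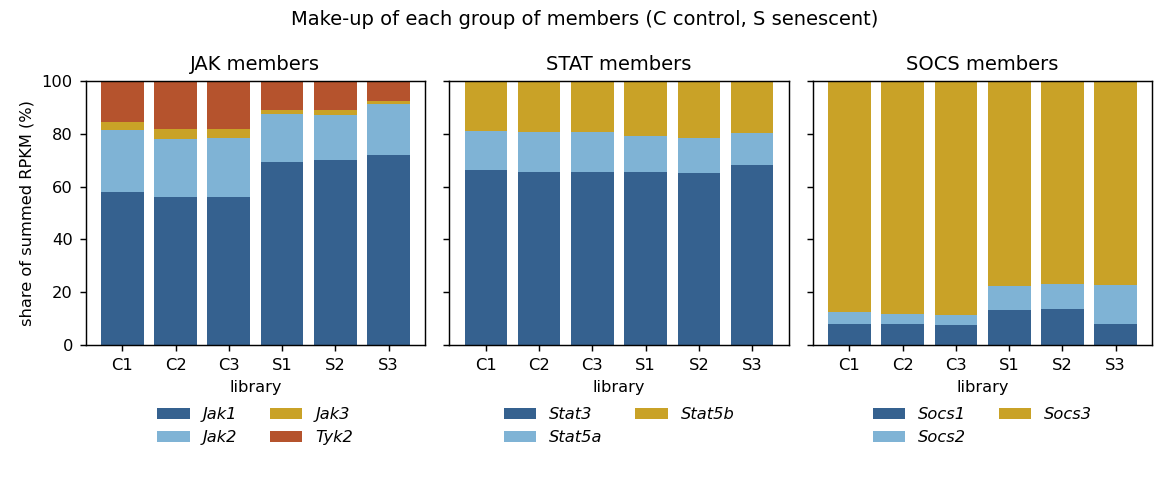
Share of each gene in the summed RPKM of its family (kinases, STATs, SOCS) in percent, for each of the 6 libraries. *Jak1* takes 56.1% to 57.9% of the kinase sum in control and 69.2% to 72.0% in senescent samples, and *Socs3* takes 88.1 ± 0.516% of the SOCS sum in control and 77.3 ± 0.495% in senescent samples (SD, n = 3).

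All 3 STAT genes fell. They lie next to each other on mouse chromosome 11, in the order *Stat5b*, *Stat5a*, *Stat3*. *Stat3* (chr11:100885098-100939540, minus strand) encodes the main STAT of IL-6 family signaling. It measured 307, 308 and 309.8 CPM in control cells, with a coefficient of variation of 0.405%, and 188, 193 and 171 CPM in senescent cells. The senescent samples spread more but stayed far below the control samples. *Stat3* fell by 0.75 on the log2 scale (SE 0.06, 95% confidence interval -0.89 to -0.60, adjusted p = 1.88e-05), or 1.68-fold.

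*Stat5a* (chr11:100859351-100885169, plus strand) and *Stat5b* (chr11:100780731-100850724, minus strand) are close relatives that transmit growth hormone, prolactin and IL-2 family signals. *Stat5a* was at 51.8, 54.2 and 53.8 CPM in control samples and at 29.4, 29.0 and 22.5 CPM in senescent samples. *Stat5b* was at 51.2, 52.5 and 53.6 CPM in control samples and at 34.5, 37.1 and 28.9 CPM in senescent samples. Both genes had their lowest value in senescent replicate 3, and for both the groups were well apart. *Stat5a* fell by 0.98 on the log2 scale (SE 0.11, 95% confidence interval -1.23 to -0.74, adjusted p = 8.44e-05) and *Stat5b* fell by 0.65 (SE 0.09, 95% confidence interval -0.87 to -0.43, adjusted p = 0.000448). The intervals of their changes overlap. Within each library the ratio of *Stat5a* to *Stat5b* CPM was 1.01, 1.03 and 1.00 in control and 0.852, 0.782 and 0.777 in senescent samples, so this ratio was lower in every senescent sample than in any control sample. Per length, *Stat5a* was below *Stat5b* in all 6 libraries.

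The pair share transcript sequence, which bears on how reads could be assigned. Of all 100-base windows of annotated transcripts, 265 of 7696 for *Stat5a* (3.44%) and 265 of 5535 for *Stat5b* (4.79%) also occur in the other gene, whereas *Stat3* shares 0 of 10082 with any other gene. A stretch before 1 RefSeq start of each gene is also alike, with 49 of 55 bases identical. It was found after the windows had been read. Its most alike 30 bases, 28 of them identical, lie at chr11:100860435-100860464 (plus strand, in an exon of 1 annotated *Stat5a* transcript) and chr11:100822581-100822610 (minus strand, intronic in *Stat5b*) in GRCm38.p6. They lie in no annotated *Stat5b* exon, so they do not bear on reads from exons of both genes. The *Stat5b* start here is an internal one, as the longest annotated transcript starts at chr11:100850724. These bases are printed 5′ to 3′ with identical bases in capitals.
Stat5a: GCAGCTGACCTTTgAGgAGGAAATCGCTGC
Stat5b: GCAGCTGACCTTTtAGaAGGAAATCGCTGC

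*Stat3* and *Stat5a* meet tail to tail, and their annotated ends overlap by 72 bases on opposite strands. The strand setting of the authors' counting is not given in the sources used here, so reads from those bases could have been counted for either gene. Per length, the summed STAT level went from 49.3 ± 0.487 to 29.1 ± 2.51 RPKM, and *Stat3* held 65.7 ± 0.417% of it in control and 66.3 ± 1.58% in senescent cells (SD, n = 3). *Stat5a* went from 15.1 ± 0.240% to 12.9 ± 0.872% and *Stat5b* from 19.2 ± 0.243% to 20.7 ± 0.877% (SD, n = 3). In contrast to the kinases, the sum fell while the share of the leading gene moved by less than the spread of the senescent samples.

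Among the SOCS genes, *Socs3* fell, *Socs2* rose slightly and *Socs1* could not be called. *Socs3* (chr11:117966079-117970047, minus strand) encodes the inhibitor that binds gp130 and blocks JAK1, JAK2 and TYK2. It was at 45.1, 48.9 and 49.5 CPM in control cells and at 21.6, 22.2 and 15.5 CPM in senescent cells. Each senescent sample was below each control sample. *Socs3* fell by 1.28 on the log2 scale (SE 0.14, 95% confidence interval -1.59 to -0.96, adjusted p = 7.66e-05), or 2.42-fold, the change furthest from 0 among the 10 genes, and 76.8% of all genes tested had a smaller one.

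*Socs3* is a classic STAT target, and its promoter is shown because it was the only window among these genes with a match to the STAT motif TTCNNNGAA, which reads the same on both strands. RefSeq windows (GRCm38.p6, 250 bases before to 50 after each start) were at hand for 9 of the 10 genes, all but *Socs2*. These genes had 11 windows, of which 1 held the motif. Over all windows, 2726 of 32851 (8.3%) hold it, so 1 of 11 is near the background share. Whether a STAT binds at the match was not tested. The match lies at chr11:117969512-117969520 on the minus strand, 154 bases before the RefSeq start, within an intron of a noncoding transcript of *Socs3* and in no annotated exon. In GENCODE the protein-coding transcript of *Socs3* starts further downstream, at chr11:117969186, so the match lies further from that start. The bases between that start and the window were not searched. It is printed with its neighbouring bases (chr11:117969502-117969530), the motif in capitals.
Socs3: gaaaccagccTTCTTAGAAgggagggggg

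*Socs2* (chr10:95385362-95417180, minus strand) encodes a regulator of growth hormone receptor signaling. It stood at 7.68, 7.41 and 7.17 CPM in control and 8.26, 9.31 and 9.69 CPM in senescent samples. The lowest senescent sample was just above the highest control sample. *Socs2* rose by 0.29 on the log2 scale (SE 0.09, 95% confidence interval 0.08 to 0.50, adjusted p = 0.0196), or 1.23-fold. The call was lost without control replicate 2 (adjusted p = 0.0645) and without control replicate 3 (adjusted p = 0.0798). The pseudogene Gm9847 shares 221 of the 9586 100-base windows of *Socs2* (2.31%).

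*Socs1* (chr16:10783808-10785536, minus strand) encodes a direct inhibitor of JAK catalytic activity that is best known from interferon signaling. It had the fewest reads of the 10 genes, with 86, 110 and 87 counts in control and 86, 131 and 57 counts in senescent samples. In CPM these were 1.72, 1.84 and 1.78 in control and 1.55, 1.65 and 0.675 in senescent cells. Senescent replicate 3 was far below the other samples. The log2 fold change was -0.48 (SE 0.30, 95% confidence interval -1.19 to 0.23, adjusted p = 0.191), and without replicate 3 it was -0.14 (adjusted p = 0.406). A change of *Socs1* was therefore not detectable in these samples, and the interval leaves room for changes up to -1.19.

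Per length, the summed level of the 3 SOCS genes went from 18.8 ± 0.846 to 8.85 ± 1.68 RPKM (SD, n = 3). *Socs3* held 88.1 ± 0.516% of it in control and 77.3 ± 0.495% in senescent cells. The share of *Socs2* went from 4.16 ± 0.329% to 11.2 ± 3.08% and that of *Socs1* from 7.78 ± 0.212% to 11.6 ± 3.11% (SD, n = 3). *Socs1* was at 1.46 ± 0.0478 RPKM in control and 1.06 ± 0.441 RPKM in senescent cells, so its larger share went with a lower mean level that did not pass the test.

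Ordered by RPKM, the control cells had *Jak1* (34.3 ± 1.39) and *Stat3* (32.4 ± 0.131) at the top, then *Socs3* (16.5 ± 0.833), *Jak2* (13.7 ± 0.864), *Tyk2* (10.5 ± 0.689), *Stat5b* (9.47 ± 0.211), *Stat5a* (7.47 ± 0.178), *Jak3* (2.03 ± 0.267), *Socs1* and *Socs2* (0.779 ± 0.0266; SD, n = 3). The ranges of neighbours in this order did not overlap. The order depends on the deposited gene lengths, which are 9531 bases for *Socs2* and 1220 bases for *Socs1*. GENCODE extends *Socs1* beyond its deposited end, to chr16:10782240. In CPM, *Socs2* was above *Socs1* in control (7.42 against 1.78) and in senescent cells (9.09 against 1.29). In senescent cells *Jak1* (41.9 ± 2.47) stood well above *Stat3* (19.3 ± 1.23), followed by *Jak2* (10.9 ± 1.03), *Socs3* (6.84 ± 1.29), *Stat5b* (6.05 ± 0.757), *Tyk2* (5.77 ± 1.01), *Stat5a* (3.78 ± 0.547), *Socs1*, *Socs2* (0.954 ± 0.0776) and *Jak3* (0.927 ± 0.210). Here *Socs3* and *Stat5b*, *Stat5b* and *Tyk2*, *Socs1* and *Socs2*, and *Socs2* and *Jak3* overlapped in their ranges. *Socs3* thus ranked above *Jak2* in control cells and below it in senescent cells.

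The call of each gene was compared across 14 other ways of handling the data. Apart from *Socs2*, each gene kept its direction and its side of the threshold in all 14. Without senescent replicate 3, the log2 fold changes were 0.25 for *Jak1*, -0.40 for *Jak2*, -0.97 for *Jak3*, -0.72 for *Tyk2*, -0.69 for *Stat3*, -0.86 for *Stat5a*, -0.54 for *Stat5b*, 0.26 for *Socs2* and -1.12 for *Socs3*. When a GC term was added to the fit for every library, a choice made after seeing the data, they were 0.43 for *Jak1*, -0.41 for *Jak2*, -0.76 for *Jak3*, -0.69 for *Tyk2*, -0.63 for *Stat3*, -0.69 for *Stat5a*, -0.38 for *Stat5b*, 0.41 for *Socs2* and -0.87 for *Socs3*. All falls but that of *Jak2* were thus smaller with this term, and *Jak3* and *Socs3* no longer exceeded a change of 1 on the log2 scale.

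**Figure D4:**
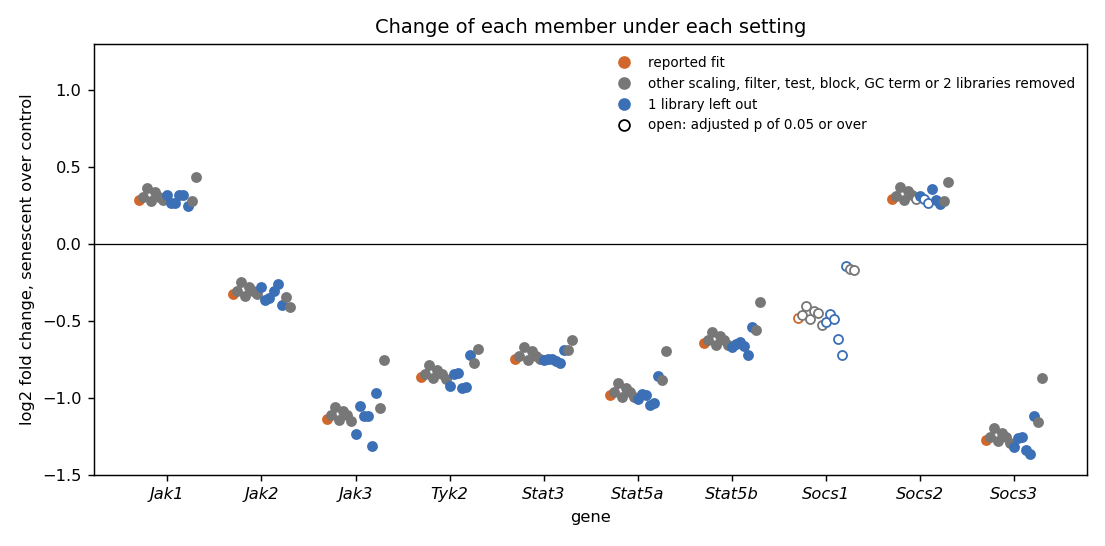
Log2 fold change of each gene, senescent against control, under the reported fit and each of the 14 alternatives, with leave-one-out fits and the other alternatives as separate point classes and open symbols for an adjusted p of 0.05 or over. *Socs3* ranges from -1.36 to -0.87 and *Stat3* from -0.77 to -0.63, and no gene changes sign.

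The rest of the pathway was described from gene lists that were chosen with earlier results of these data known. In each list, at most 3 genes were named by their mean level over all libraries. Of 25 listed ligands, 14 were tested, of which 9 rose and 4 fell in senescent cells, or 92.9% called against 70.3% of all genes tested. Their median log2 fold change was 1.31, against 0.01 for all genes tested. Genes such as *Csf2*, at 0 to 2 counts in control, passed the filter only through their senescent counts, so a higher call follows partly from the filter. Requiring at least 10 counts in every library left 12 ligands tested, of which 7 rose and 4 fell, beside 10437 genes called of 15205 tested. *Lif*, leukemia inhibitory factor of the IL-6 family, went from 1.47 ± 0.224 to 96.6 ± 7.90 CPM (SD, n = 3; log2 fold change 6.03, adjusted p = 1.71e-08). *Clcf1*, another IL-6 family ligand, rose from 59.9 ± 2.74 to 115 ± 15.1 CPM (SD, n = 3; log2 fold change 0.94, adjusted p = 7.71e-05).

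Of 42 listed receptor genes, 31 were tested, and 17 were higher, 8 lower and 6 not called, or 80.6% called against 70.3% of all genes tested. Their median log2 fold change was 0.36, and that of all genes tested was 0.01. Here too, genes such as *Csf2rb*, at 0 to 3 counts in control, passed the filter only through their senescent counts. With at least 10 counts required in every library, 25 receptor genes were tested, of which 11 were higher and 8 lower. At that limit, 5151 of 15205 genes were higher and 5286 lower. *Il6st*, encoding gp130, had the highest level and fell from 1266 ± 34.6 to 603 ± 26.5 CPM (SD, n = 3; log2 fold change -1.07, adjusted p = 1.45e-06). *Osmr*, the oncostatin M receptor, did not pass the test, with 265 ± 10.1 CPM in the control group and 232 ± 22.7 CPM in the senescent group (SD, n = 3; adjusted p = 0.0566). *Il4ra*, the IL-4 receptor chain, rose from 64.5 ± 3.02 to 193 ± 29.1 CPM (SD, n = 3; log2 fold change 1.58, adjusted p = 7.89e-06).

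Of the 4 STAT genes outside the 10, 3 were tested, and 3 were lower in senescent cells and 0 higher. Of all genes tested, 70.3% were called and 34.1% were lower. The median log2 fold change of these STAT genes was -0.47, against 0.01 for all genes tested. *Stat2*, a STAT of type I interferon signaling, had a log2 fold change of -0.38 (adjusted p = 0.000773) and *Stat6*, the STAT of IL-4 and IL-13, of -0.47 (adjusted p = 0.000368). *Stat4* had too few counts to be tested.

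Of the 5 CIS and SOCS genes outside the 10, 3 were higher in senescent cells, 0 were lower and 2 were not called. This is 60% called, below the 70.3% of all genes tested, of which 36.2% were higher. Their median log2 fold change was 0.65, against 0.01 for all genes tested. *Socs5* rose from 126 ± 1.25 to 197 ± 5.81 CPM (SD, n = 3; log2 fold change 0.65, adjusted p = 1.46e-05) and *Socs6* from 43.6 ± 0.0517 to 80.5 ± 11.6 CPM (SD, n = 3; log2 fold change 0.89, adjusted p = 0.000106). *Socs7*, which fell outside the naming rule and was named after its values were seen, had a log2 fold change of 0.83 (adjusted p = 6.08e-06). *Socs4* (adjusted p = 0.173) and *Cish* (adjusted p = 0.0885) did not pass the test.

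Of 17 other listed inhibitors and adaptors, 10 were higher, 5 lower and 2 not called, or 88.2% called against 70.3% of all genes tested. The median log2 fold change was 0.35, against 0.01 for all genes tested. *Ptpn11*, encoding the phosphatase SHP2, rose from 222 ± 0.539 to 334 ± 6.74 CPM (SD, n = 3; log2 fold change 0.59, adjusted p = 1.97e-05). The STAM adaptors, which bind JAKs and sort receptors on endosomes, had log2 fold changes of 0.74 for *Stam* (adjusted p = 0.000132) and 0.53 for *Stam2* (adjusted p = 0.000223).

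Known target genes of the STATs did not move in 1 direction. Of 18 listed STAT3 targets, 9 were higher, 5 lower and 4 not called, and of 11 listed STAT5 targets 9 were tested, of which 6 were higher and 1 was lower. In each list 77.8% of the tested genes were called, near the 70.3% of all genes tested. The median log2 fold change was 0.29 for STAT3 targets and 0.44 for STAT5 targets, against 0.01 for all genes tested. The lists overlap with the genes above, as *Socs3* is in both and *Socs2* is a STAT5 target. *Il6st*, a receptor gene, is also a listed STAT3 target and fell (log2 fold change -1.07, adjusted p = 1.45e-06). *Timp1*, a metalloproteinase inhibitor, had a log2 fold change of 1.37 (adjusted p = 2.41e-07). The D-type cyclin genes *Ccnd1*, which is in both lists, and *Ccnd2* had log2 fold changes of 1.87 (adjusted p = 1.06e-07) and 1.29 (adjusted p = 5.21e-07), and *Bcl2l1*, encoding the survival protein BCL-XL, one of 0.74 (adjusted p = 9.95e-05). These genes have many other regulators, and what part STAT activity had in their levels was not tested.

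**Figure D5:**
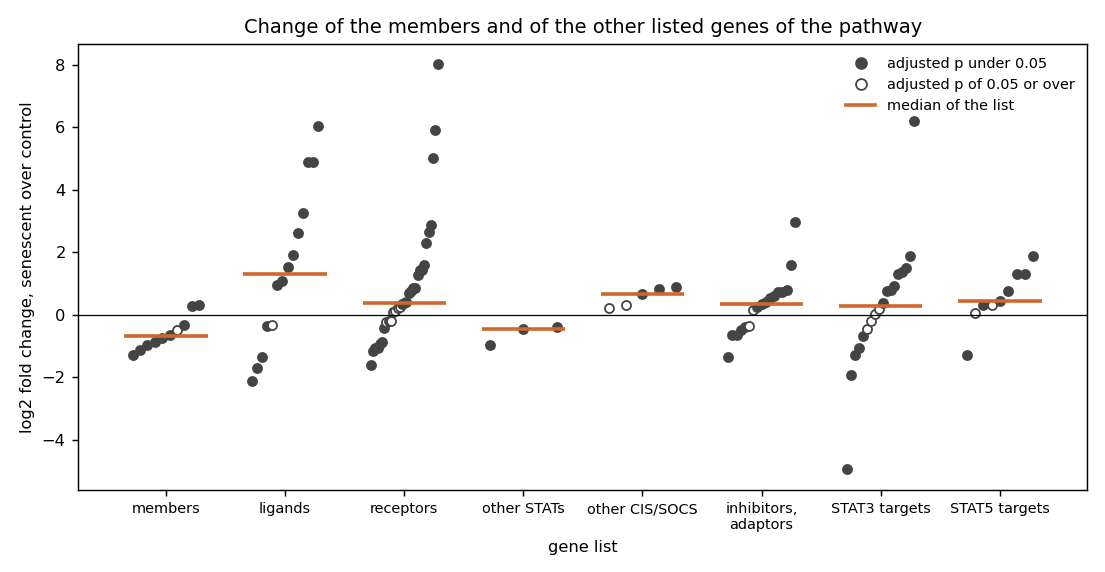
Log2 fold change, senescent against control, of every tested gene in each list of the pathway, with the median of each list and open symbols for an adjusted p of 0.05 or over ("members" are the 10 genes, and the highest receptor point is *Il21r*, which is at 0 counts in control, so that its fitted value is no measure of size). The medians are -0.70 for the 10 genes, 1.31 for ligands, 0.36 for receptors, -0.47 for the other STATs and 0.65 for the other CIS and SOCS genes.

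A pool of 12958 genes had 100 or more counts on average, and those whose pattern over the 6 libraries lay closest to *Jak1*, *Stat3* and *Socs3* were found by the root mean square distance of log2 CPM, each gene centred on its own mean. Closest to *Jak1* were *Ino80d* (0.0148), *Ankle2* (0.0167) and *Tbc1d19* (0.0191). Closest to *Stat3* were *Csrp1* (0.0139) and *Lage3* (0.0176). Closest to *Socs3* were *Ptgis* (0.0167), *Arap1* (0.0240) and *Ptprf* (0.0272). With 6 libraries in 2 groups, such closeness describes the size of the difference and the order of the samples only.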

How the data were processed

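RNA from 3 control and 3 senescent MAF samples was made into stranded polyA libraries. The authors aligned reads to mm10 with STAR and deposited raw counts per gene from Subread in a single table; the strand setting and the treatment of reads with several matches are not given in the sources used here. Counts were tested in R 4.3.3 with edgeR 4.0.16 (filterByExpr, TMM scaling, robust quasi-likelihood test, two-sided, Benjamini-Hochberg adjustment over all 17589 genes tested), with a call at an adjusted p under 0.05. The common biological coefficient of variation was 0.100. Standard errors follow from the F statistic. CPM uses TMM-scaled totals, and RPKM divides it by the gene length given in the deposited table. A total of 3 counts corresponds to 0.0355 to 0.0613 CPM per library, which covers counting error only.

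The 10 genes, the pathway and marker lists and the tests were chosen with earlier results of these data known. Outside the 10 genes, the 3 with the highest mean CPM of each list were named, and the 3 nearest in pattern to *Jak1*, *Stat3* and *Socs3*; a few genes that these rules name are not reported here. Alternatives were RLE scaling or library size alone, 2 other filters, DESeq2 1.42.0, a replicate block, leaving out each library and a limit on p and fold from the study's methods. A pair of libraries removed together and a term for GC content were added after seeing the data. The marker *Adgre1* was matched by identifier to its older symbol. GENCODE annotation of GRCm38 gave strands and transcripts, and RefSeq gave promoter windows. Scripts were tested on simulated data.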

Additional observations from a re-analysis of the deposited data

How the results depend on the processing

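Of 140 values for the log2 fold changes of the 10 genes under other settings, 137 kept their direction and their side of the threshold and 3, all for *Socs2*, kept the direction but lost the call. The log2 fold change of *Socs2*, 0.29 as reported, ranged from 0.26 to 0.41, and its highest adjusted p was 0.0798, without control replicate 3. The replicate block, with replicate numbers that do not pair the samples (correlations of same-numbered samples -0.145, 0.135 and -0.120), gave 8 called genes of the 10 and 11624 of all genes, and an adjusted p of 0.0588 for *Socs2*. The limit on p and fold from the study's methods gave 2 of the 10 and 5300 of all genes, against 9 and 12365. Removing control replicate 1 and senescent replicate 3 together gave 5 called CIS and SOCS genes in place of 3. The difference of shares, senescent minus control in percentage points, was 13.7 for *Jak1* per length and 11.8 from CPM, and 12.9 to 14.3 with each library left out. For *Socs3* it was -10.8 per length, -18.6 from CPM, and -11.1 to -10.5 with each library left out. For *Stat3* it was 0.683, and -0.222 to 1.23 with each library left out, negative without senescent replicate 3. The causes were not tested, except that the CPM values by construction leave out gene length. The median log2 fold change of all genes tested was 0.31 with no filter (29776 genes) and between -0.02 and 0.09 in the other settings. *Socs1* had the fewest reads of the 10 genes, with 57 to 131 counts per library, and its log2 fold change was -0.48, or -0.14 without senescent replicate 3.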

Other observations

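Some genes that act beside the 10 fell outside the naming rule and are given here after their values were seen, all from the edgeR fit. *Ghr*, the growth hormone receptor, which signals through JAK2 and STAT5 and is held in check by SOCS2, rose from 62.4 ± 1.68 to 166.8 ± 23.6 CPM (SD, n = 3; log2 fold change 1.42, adjusted p = 7.58e-06), while *Jak2*, *Stat5a* and *Stat5b* fell. *Usp18*, an interferon-induced inhibitor of type I interferon receptor signaling, rose from 2.85 ± 0.0881 to 8.62 ± 0.358 CPM (SD, n = 3; log2 fold change 1.60, adjusted p = 1.81e-06), whereas *Stat2* fell. *Ptpn6*, encoding the phosphatase SHP1, which is mainly known from blood cells, went from 2.13 ± 0.136 to 0.842 ± 0.283 CPM (SD, n = 3; log2 fold change -1.36, adjusted p = 0.00116). *Il21r*, a receptor that pairs with the common gamma chain, had 0 counts in all 3 control samples and 36, 42 and 32 counts in the senescent samples.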
